A study of Xenopus tropicalis with 20 samples.

Results

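The membrane trafficking genes of the liver were followed in mature females of Xenopus tropicalis, the western clawed frog, over 4 groups of 5 libraries. The genes were taken by name: those called rab, arf, vps, snx, exoc, stx or vamp with a number, trappc, subunits of the AP-1 to AP-4 adaptors, and rgp1. The rule for adaptor names did not take alpha subunits, so AP-2 is covered only in part. Of 208 genes so named, 171 had a mean of 1 FPKM or more over the 20 libraries and make up the set, out of 10228 genes tested and 20372 named genes. FPKM is a fragment count corrected for the length of the transcript and for the total of its library. The F2 mixture and F1 mixture females were second- and first-generation descendants of F0 founders kept from tadpole to mature adult with benzo[a]pyrene (BaP, a polycyclic aromatic hydrocarbon) and triclosan (TCS, an antimicrobial agent), given as a mixture at 50 ng/L. The F2 control and F1 control females were the control groups of the same generations. The labels state that no F1 or F2 female was itself exposed. They do not give the age in months, the clutch or the number of founder pairs behind each group, so a p-value here measures only the spread between these libraries, which may be partly technical. Reads of both control groups come from an earlier deposit, and sequencing batch and group cannot be told apart where mixture is set against control. No label dates the runs, so sequencing run and generation cannot be told apart either.

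Cells move cargo between compartments in vesicles that bud with a coat, are directed by small GTPases of the Rab and Arf families, are caught by tethers and fuse through SNARE proteins. Adaptor complexes pick the cargo, retromer and the sorting nexins send receptors from endosomes back to the Golgi or the cell surface, and ESCRT complexes send them on to the lysosome. In the liver these routes carry secreted plasma proteins out of the hepatocyte, take lipoproteins and iron carriers in, and serve the canalicular membrane that faces the bile.

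The deposited FPKM limits correspond to 7896246 to 16704801 fragments per library, and levels below are scaled FPKM, the deposited FPKM divided by 1 factor per library. All 15 hepatocyte markers passed the level minimum, and none of the 12 ovary markers in the files did. The hepatocyte markers summed to a median of 10008 scaled FPKM in F2 mixture libraries, against 16337 in F2 control libraries, 12618 in F1 mixture libraries and 6833 in F1 control libraries. The erythrocyte markers, with hbe1 listed at 0 in all F2 mixture libraries, summed to 17198 to 171438 in F2 mixture libraries, 57926 to 166088 in F2 control libraries, 25164 to 79043 in F1 mixture libraries and 17888 to 101624 in F1 control libraries. These are bulk samples, in which fewer cells of a type and less RNA per cell cannot be told apart. F2 mixture library 2 had the lowest weight of the 20 when libraries were weighted by their residual spread (0.288), and F2 control library 1 the lowest among F2 controls (0.532). F1 mixture libraries 1 and 8 (0.447 and 0.555) lay apart from the other F1 mixture libraries on the leading principal component, among the F1 controls, and F1 control library 3, with the lowest weight of its group (0.566), lay apart from the other F1 controls.

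The members differed widely in level. The mean FPKM over 20 libraries had a median of 4.72 and a highest value of 90.6, for rab10, a GTPase of exocytosis and of ER shape. It was followed by exoc7 of the exocyst (61.0), rab3ip, an exchange factor for Rab8 (46.2), ap1s1 of the adaptor AP-1 (43.0) and rab43 (39.5). The 42 members at 10 FPKM or more included ap2m1 (38.7), the cargo-binding subunit of the endocytic adaptor AP-2, and vamp8 (33.2), a SNARE of late endosomes and of regulated secretion. At the other end snx3 (1.01), rab11fip5 (1.07) and rab3il1 (1.11) were just inside the minimum, and vps53 (0.994), rab31 (0.921) and vamp2 (0.873) just outside. All 37 genes left out were under the minimum, none for a failed estimate. There were 5 members (rab3il1, snx3, stx2, vamp3 and vamp4) that reached 1 FPKM only through the F2 control libraries and 1 (rab11fip5) only through the F1 mixture libraries, so their place in the set depends on those groups.

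Summed over members, the set came to 1389 to 1778 scaled FPKM in F2 mixture libraries, 1637 to 1836 in F2 control libraries, 1312 to 1545 in F1 mixture libraries and 1319 to 1460 in F1 control libraries. On this scale the F2 control libraries were all above every F1 library, and the F2 mixture libraries overlapped both. That order depends on the scaling. As a share of all summed FPKM the set came to 0.0959% to 0.174% in F2 mixture and 0.118% to 0.193% in F2 control libraries. In F1 mixture libraries that share was 0.143% to 0.244%, and in F1 control libraries 0.162% to 0.317%. By group mean, the highest group was F2 control for 93 of the 171 members, F1 control for 45, F1 mixture for 20 and F2 mixture for 13. The lowest was F1 control for 64, F2 mixture for 46, F2 control for 39 and F1 mixture for 22. The same counts over all genes tested are not given here, so these cannot be read as a trait of the members. Between libraries of 1 group the median coefficient of variation was 27.9% in F2 mixture, 17.8% in F2 control, 23.5% in F1 mixture and 22.2% in F1 control.

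**Figure D1:**
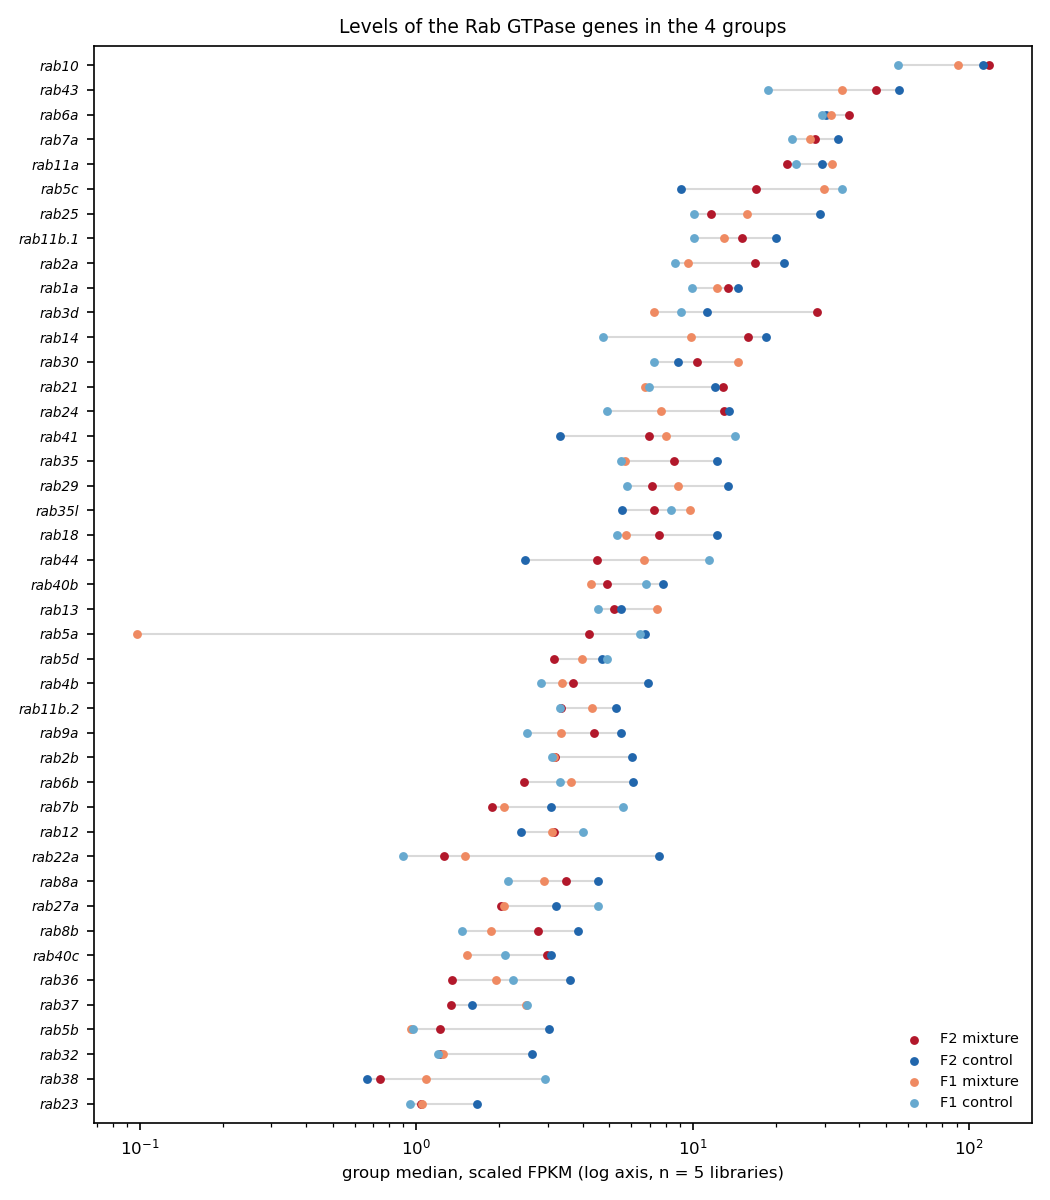
Median scaled FPKM (log axis) of 43 Rab GTPase genes in the 4 groups, 5 libraries each, ordered by mean FPKM, with a grey line from the lowest to the highest group median; rab20, which has values listed at 0, is left out. F2 control (dark blue) stands to the right of the other groups for rab22a, at 7.55, and to the left for rab5c and rab41, and the F1 mixture median of rab5a is 0.0975.

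The 4 genes named rab5, GTPases of the early endosome, had unlike patterns over the groups. rab5c, the most abundant of them with a mean of 24.1 FPKM, was at 9.83 to 25.9 in F2 mixture libraries and 8.84 to 13 in F2 control libraries, against 26.5 to 42.7 in F1 mixture libraries and 24.3 to 42.0 in F1 control libraries. Every F1 library was above every F2 control library, and the F2 mixture range overlapped those of both control groups. rab5a took 2 separate ranges in F1 livers: 0.0975, 5.07, 6.95, 0.0925 and 0.0133 in F1 mixture libraries and 7.45, 0.159, 6.46, 8.20 and 0.119 in F1 control libraries. Thus 3 F1 mixture and 2 F1 control libraries were below 1, whereas no F2 library was, with 3.45 to 7.06 in F2 mixture libraries and 6.31 to 13.8 in F2 control libraries. rab5b ran at 1.01 to 2.56 in F2 mixture libraries and 1.86 to 4.40 in F2 control libraries, against 0.612 to 1.02 in F1 mixture libraries and 0.674 to 1.42 in F1 control libraries. The 4 ranges of rab5d overlapped, at 2.45 to 6.40 in F2 mixture, 3.68 to 5.38 in F2 control, 3.37 to 5.72 in F1 mixture and 4.09 to 5.10 in F1 control libraries.

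The comparison of F2 mixture with F2 control females asks how livers of the second unexposed generation descended from exposed founders compare with those of control descent. Of the 171 members, 7 rose and 39 fell in F2 mixture livers, 46 in all or 26.9%, where 25.7% of all genes tested were called. That share is near the background. The split was 4.09% higher and 22.8% lower, where the background was 11.3% higher and 14.5% lower. The median log2 difference was -0.26 over members and -0.04 over all genes tested, and 48 members were above 0. The F2 mixture and F2 control libraries did not overlap at all for 5 members that were higher and 21 that were lower. These are 2.92% and 12.3% of members, where the shares of all genes tested were 7.97% and 7.38%. Without the 5 members that entered through the F2 control libraries, 7 rose and 36 fell. The test was limma on log2(scaled FPKM + 1), two-sided, with p-values adjusted over all 10228 genes by Benjamini-Hochberg and a threshold of 0.05, and fold changes are differences on that scale ± SE, which understate the change of low genes. Of the 46 calls, 27 were kept under every other limma setting tried, and 16 were lost when 1 or another library was left out. With the mean level of the erythrocyte markers, 2 of 14 of which fell, as a covariate, 8 members were called higher and 32 lower. The share of all genes called in that fit is not given here. Of the hepatocyte markers 4 of 15 fell, and their part in the result was not tested.

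**Figure D2:**
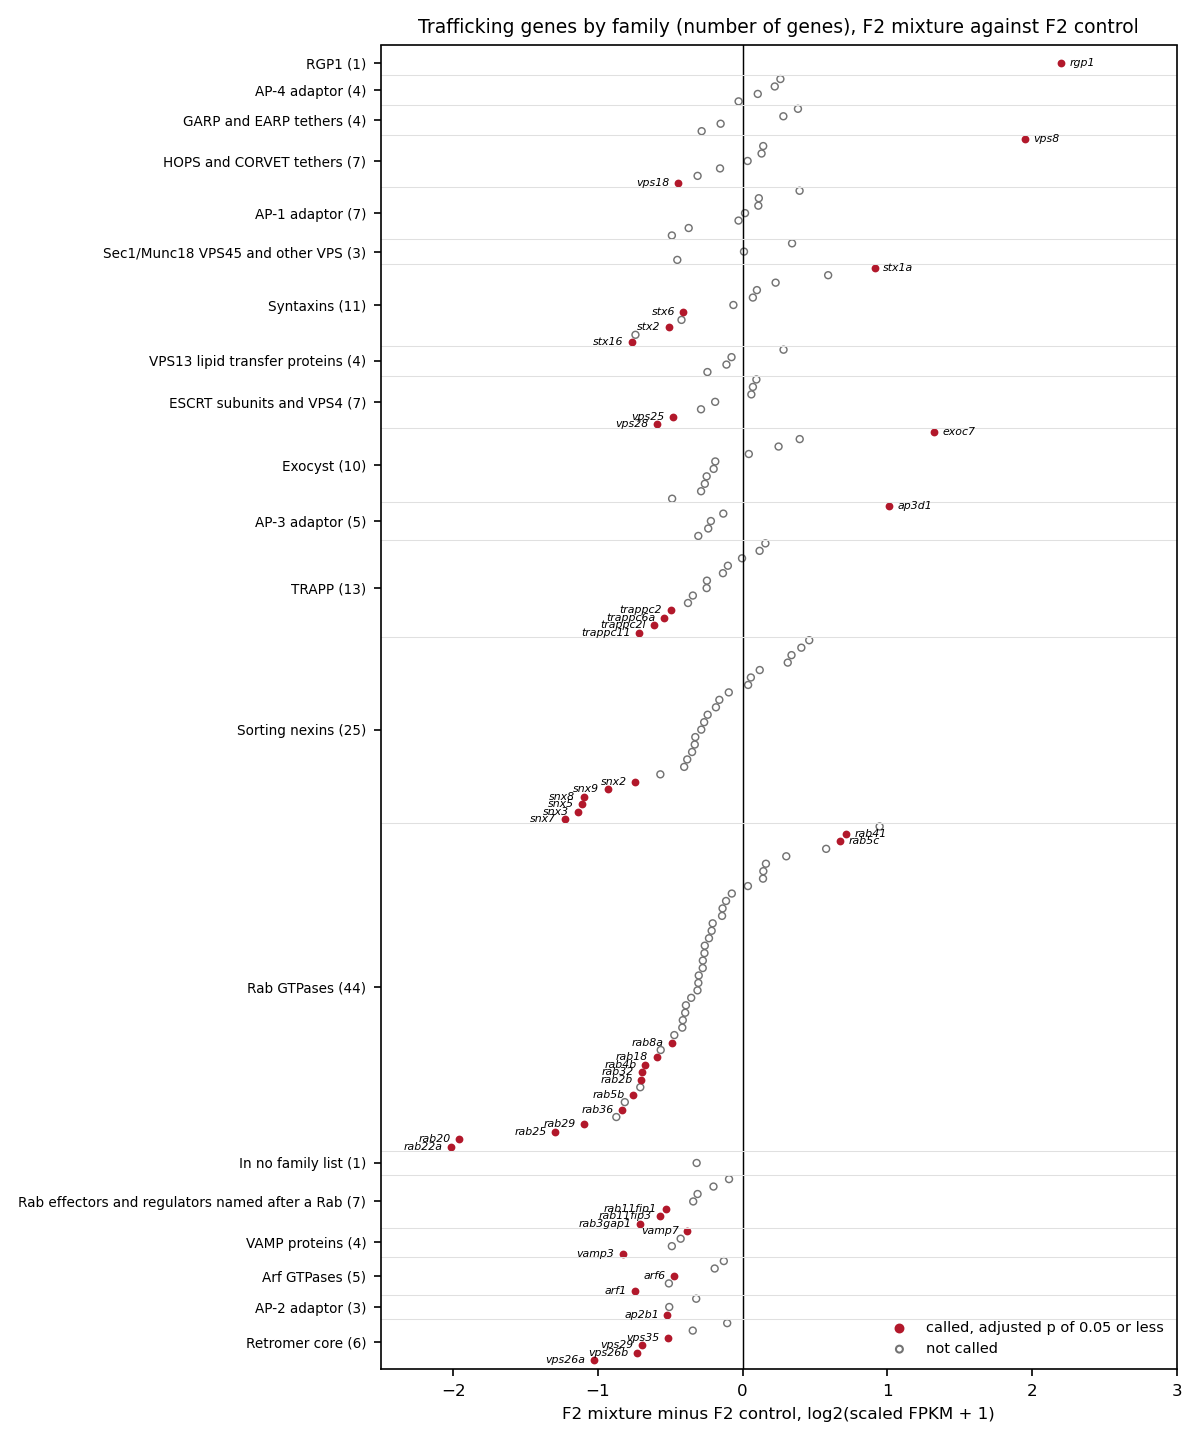
Log2 difference between F2 mixture and F2 control livers, on the log2(scaled FPKM + 1) scale, for each of the 171 members by family; filled points, which carry the gene's name, passed limma's adjusted p of 0.05. Most filled points lie left of 0, in the Rab GTPases (11 of 44), sorting nexins (6 of 25) and retromer list (4 of 6), and the members furthest to the right are rgp1 (2.20) and vps8 (1.95).

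The largest rise was in rgp1 (chr1:215846567-215869614, in the files' coordinates, which match the gene starts and ends of UCB_Xtro_10.0 for 169 of the 171 members). Its product in human cells forms with RIC1 an exchange factor that activates Rab6 at the Golgi. The gene stood at 30.4, 12.2, 33.9, 102 and 30.8 scaled FPKM in F2 mixture libraries, against 5.29, 9.62, 6.83, 5.81 and 5.45 in F2 control libraries. The highest F2 mixture library, at 102, stood well apart from the other four, yet the lowest was still above every F2 control library. The log2 difference was 2.20 ± 0.52 (adjusted p = 0.00441), with adjusted p = 0.00122 to 0.0167 when any 1 library was left out. F1 livers were in the same range as F2 mixture livers, 12.2 to 77.6 in F1 mixture and 16.1 to 73.8 in F1 control libraries, so F2 control was the low group. Its partner ric1 was at 1.89 ± 0.631 in F2 mixture livers and 2.11 ± 0.582 in F2 control livers (SD, n = 5 each), a log2 difference of -0.11 ± 0.16 (adjusted p = 0.667). The Rab6 gene rab6a, at 36.6 ± 7.79 in F2 mixture livers and 32.3 ± 5.27 in F2 control livers, differed by 0.16 ± 0.19 (adjusted p = 0.558).

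The next largest rise was in vps8 (chr9:54787815-54892128), the Rab5-binding subunit of the CORVET tether of early endosomes. Its values were 24.6, 10.4, 37.1, 27.5 and 16.6 scaled FPKM in F2 mixture libraries, against 2.40, 8.71, 3.59, 8.93 and 3.30 in F2 control libraries. The groups did not overlap, and the log2 difference was 1.95 ± 0.45 (adjusted p = 0.00386). The gene overlaps rpe in the annotation, and fragments of overlapping genes can be shared out between them. In F1 livers vps8 ran at 4.38 to 32.9 in mixture libraries and 4.54 to 9.24 in control libraries, with the wider spread in F1 mixture. None of the 6 other genes listed with the HOPS and CORVET tethers rose: vps18, a core subunit of both, fell by 0.45 ± 0.16 log2 units (adjusted p = 0.0408, and up to 0.118 without any of 7 F2 libraries), and vps11, vps33a, vps33b, vps39 and vps41 were not called, between -0.31 and 0.14.

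exoc7 (chr10:45033318-45045206) encodes Exo70, the exocyst subunit that binds the plasma membrane and marks where secretory vesicles dock. It was at 41.2, 25.1, 44.5, 83.0 and 60.8 scaled FPKM in F2 mixture libraries, against 13.3, 19.4, 21.2, 24.8 and 14.7 in F2 control libraries. Again the groups did not overlap, with a log2 difference of 1.33 ± 0.30 (adjusted p = 0.00353). F1 livers ran higher, at 41.7 to 95.3 in F1 mixture and 60.8 to 123 in F1 control libraries. The 9 other exocyst genes were not called, between -0.49 for exoc1 and 0.39 for exoc6b.

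ap3d1 (chr1:102762802-102832528), the delta subunit of AP-3, which sorts cargo to lysosomes and related organelles, was at 17.2, 14.2, 21.3, 27.1 and 15.1 scaled FPKM in F2 mixture libraries, against 8.42, 9.34, 8.45, 8.54 and 8.55 in F2 control libraries. The F2 control libraries lay close together, and all lay below the F2 mixture libraries and below both F1 groups. The log2 difference was 1.01 ± 0.20 (adjusted p = 0.00165). The 4 other AP-3 genes were not called, between -0.31 and -0.13.

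The remaining 3 rises were smaller, and each call ended when some single library was left out. stx1a, a SNARE of the plasma membrane, was at 4.20 ± 1.52 in F2 mixture livers and 1.76 ± 0.835 in F2 control livers (SD, n = 5 each), a log2 difference of 0.91 ± 0.27 (adjusted p = 0.0171, and 0.0519 without F2 control library 1). rab41 was at 6.75 ± 1.45 in F2 mixture livers and 3.72 ± 0.946 in F2 control livers, a log2 difference of 0.71 ± 0.21 (adjusted p = 0.0193, but 0.0522 without F2 mixture library 4 and 0.0514 without F2 control library 5). rab5c rose by 0.67 ± 0.23 log2 units (adjusted p = 0.0363), and leaving out any of 7 F2 libraries ended the call, with adjusted p up to 0.119.

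**Figure D3:**
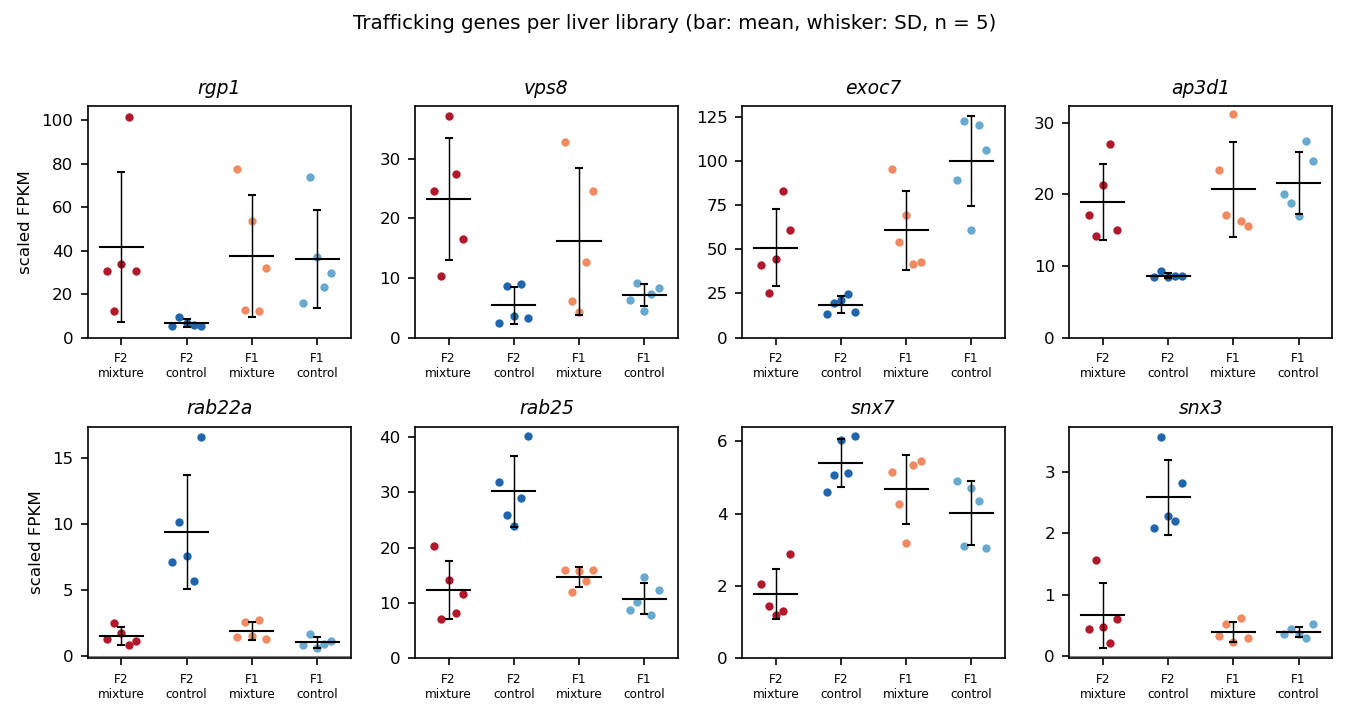
Scaled FPKM of 8 members in each of the 20 liver libraries (points), with the mean (bar) and SD (whisker) of 5 libraries per group. In the upper row F2 control is the low group for rgp1 (at most 9.62), exoc7 and ap3d1 (at most 9.34). For vps8 the F2 control values overlap those of both F1 groups. In the lower row F2 control is the high group for rab22a, rab25 and snx3, and F2 mixture is the low group for snx7 (1.20 to 2.88). The gene snx3 entered the set only through the F2 control libraries.

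Rab GTPases made up the largest family, and 11 of the 44 fell in F2 mixture livers while 2 rose. The largest fall was in rab22a (chr10:2683646-2699879), a GTPase of early endosomes related to Rab5 that recycles clathrin-independent cargo. It stood at 1.26, 2.52, 1.73, 0.825 and 1.1 scaled FPKM in F2 mixture libraries, against 7.14, 10.2, 7.55, 5.65 and 16.6 in F2 control libraries. The groups were far apart, with a ratio of means of 0.158 and a log2 difference of -2.02 ± 0.24 (adjusted p = 1.26e-05). F1 livers were low too, at 1.24 to 2.75 in F1 mixture and 0.600 to 1.64 in F1 control libraries. rab25 (chr8:133278103-133291993), a Rab11 relative of epithelial recycling endosomes, had 20.2, 7.14, 14.1, 8.19 and 11.7 in F2 mixture libraries, against 31.8, 25.9, 23.9, 28.9 and 40.2 in F2 control libraries. The groups did not overlap, and rab25 fell by 1.29 ± 0.23 log2 units (adjusted p = 0.000689).

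rab20, a GTPase of endosome and phagosome maturation, had values listed at 0 in 8 libraries. Its values were 0, 2.43, 0, 0 and 2.04 in F2 mixture libraries, against 3.46, 7.95, 4.62, 4.05 and 7.19 in F2 control libraries, and 0, 2.12, 0, 3.92 and 2.96 in F1 mixture and 2.98, 0, 2.82, 0 and 0 in F1 control libraries. It overlaps naxd in the annotation, and fragments of overlapping genes can be shared out between them. None of its values, those of 0 included, was flagged as a failed estimate. The fitted log2 difference was -1.96 ± 0.53 (adjusted p = 0.0107). rab29, a Golgi GTPase known as a partner of the kinase LRRK2, fell by 1.1 ± 0.26 log2 units (adjusted p = 0.00448), with 3.53 to 8.66 in F2 mixture libraries and 11.9 to 16.2 in F2 control libraries. rab36 fell by 0.83 ± 0.16 log2 units (adjusted p = 0.00108), with 1.07 to 2.06 in F2 mixture libraries and 2.87 to 3.72 in F2 control libraries. Neither gene's groups overlapped.

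The other 6 falls among Rab GTPases were between -0.49 and -0.76. With their log2 differences they were rab5b of early endosomes (-0.76 ± 0.17, adjusted p = 0.00367), rab2b of the early secretory pathway (-0.70 ± 0.13, 0.00102), rab32 of lysosome-related organelles (-0.70 ± 0.16, 0.00325), rab4b of fast recycling (-0.67 ± 0.17, 0.00811), rab18 of the ER and lipid droplets (-0.59 ± 0.13, 0.00356) and rab8a of surface delivery (-0.49 ± 0.15, 0.0205). Of these, the rab8a call ended without F2 mixture library 1 or 5 or F2 control library 2 (adjusted p up to 0.0583), and the other 5 were kept under every limma setting. Other widely expressed Rabs were not called: on the log2 scale rab10 differed by 0.04 ± 0.30, rab7a of late endosomes by -0.28 ± 0.15, rab1a of ER-to-Golgi traffic by -0.14 ± 0.17 and rab11a of recycling endosomes by -0.40 ± 0.22. Among 7 genes named after a Rab they bind, rab3gap1, rab11fip3 and rab11fip1 fell. rab3gap1, the catalytic subunit of a complex that acts on Rab3 and Rab18, fell by 0.71 ± 0.21 log2 units (adjusted p = 0.0169), a call that ended without F2 mixture library 4 (0.0574) or F2 control library 2 (0.0501). The Rab11 effectors rab11fip1 (-0.53 ± 0.15, adjusted p = 0.0124) and rab11fip3 (-0.57 ± 0.18, 0.0246) fell as well, and the rab11fip3 call ended without any of 6 F2 libraries (up to 0.0683).

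Retromer, the complex of VPS26, VPS29 and VPS35 that retrieves receptors from endosomes, is encoded by 4 genes, and all 4 were called lower by limma in F2 mixture livers. vps26a (chr7:38851460-38865848) was at 11.4, 8.28, 8.19, 6.89 and 8.16 scaled FPKM in F2 mixture libraries, against 16.3, 17.7, 19.0, 22.8 and 16.6 in F2 control libraries. vps29 was at 8.80, 13, 11.6, 11.4 and 11.8 in F2 mixture libraries, against 18.4, 19.9, 19.5, 17.2 and 19.1 in F2 control libraries. vps35, the scaffold, was at 4.47, 4.91, 3.72, 3.76 and 4.35 in F2 mixture libraries, against 7.15, 6.70, 5.58, 6.85 and 6.25 in F2 control libraries. None of these 3 genes had overlapping groups. The log2 differences were -1.03 ± 0.21 for vps26a (adjusted p = 0.00158), -0.69 ± 0.13 for vps29 (0.00109) and -0.52 ± 0.11 for vps35 (0.00306). vps35 overlaps orc6 in the annotation. vps26b, the other VPS26 form, fell by 0.73 ± 0.20 log2 units (adjusted p = 0.0107), although F2 mixture library 2, at 5.50, lay within the F2 control range of 4.03 to 6.44. The authors' deposited Cuffdiff table marked vps26a as lower (q = 0.00778). There vps26b (log2 fold change -0.47, q = 0.261), vps29 (-0.52, 0.289) and vps35 (-0.50, 0.31) were lower but not marked. In F1 livers all 4 genes were below every F2 control library, for example vps29 at 12 to 14.8 in F1 mixture and 10.2 to 13.3 in F1 control libraries. The 2 genes of the related retriever complex that it does not share with retromer were not called. vps26c differed by -0.34 ± 0.19 (adjusted p = 0.187) and vps35l by -0.11 ± 0.16 (0.652).

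Of the 25 sorting nexins, which bind endosomal phosphoinositides and shape or sort the membrane, 6 fell and none rose. The nexin with the smallest p was snx7 (chr4:103059570-103088994), which takes part in autophagy, at 2.04, 1.45, 1.20, 1.31 and 2.88 scaled FPKM in F2 mixture libraries, against 4.60, 5.07, 6.04, 5.11 and 6.14 in F2 control libraries. It fell by 1.23 ± 0.17 log2 units (adjusted p = 8.08e-05), and its F1 values, 3.19 to 5.44 in F1 mixture and 3.05 to 4.89 in F1 control libraries, were above every F2 mixture library, so here F2 mixture was the low group. snx5, the most abundant nexin and a partner of retromer in tubule formation, was at 19.7, 23.5, 12.7, 14.7 and 22.7 in F2 mixture libraries, against 59.6, 43.5, 32.2, 27.2 and 46.7 in F2 control libraries. It fell by 1.11 ± 0.24 log2 units (adjusted p = 0.00244). Of its partners snx2 fell by 0.74 ± 0.17 log2 units (adjusted p = 0.0041), while snx1 differed by -0.29 ± 0.13 (0.105) and snx6 by -0.38 ± 0.18 (0.113), neither called.

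snx3, which works with retromer to recycle the Wnt carrier Wntless, was low, at 0.441, 1.57, 0.480, 0.221 and 0.606 in F2 mixture libraries, against 2.08, 3.56, 2.28, 2.20 and 2.81 in F2 control libraries. It fell by 1.14 ± 0.16 log2 units (adjusted p = 0.000107), and both F1 groups were below 1 in every library. However, snx3 reached the level minimum only through the F2 control libraries, the group this fall is measured against. snx8, another endosomal nexin, was at 1.37 to 5.43 in F2 mixture libraries and 3.95 to 8.56 in F2 control libraries, a log2 difference of -1.1 ± 0.24 (adjusted p = 0.00328). snx9, which joins dynamin at clathrin pits, was at 1.78 to 3.44 in F2 mixture libraries and 3.2 to 8.24 in F2 control libraries, a log2 difference of -0.93 ± 0.20 (adjusted p = 0.00246). Both pairs of ranges overlapped in part. The 19 nexins not called lay between -0.57 for snx20 and 0.46 for snx11.

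**Figure D4:**
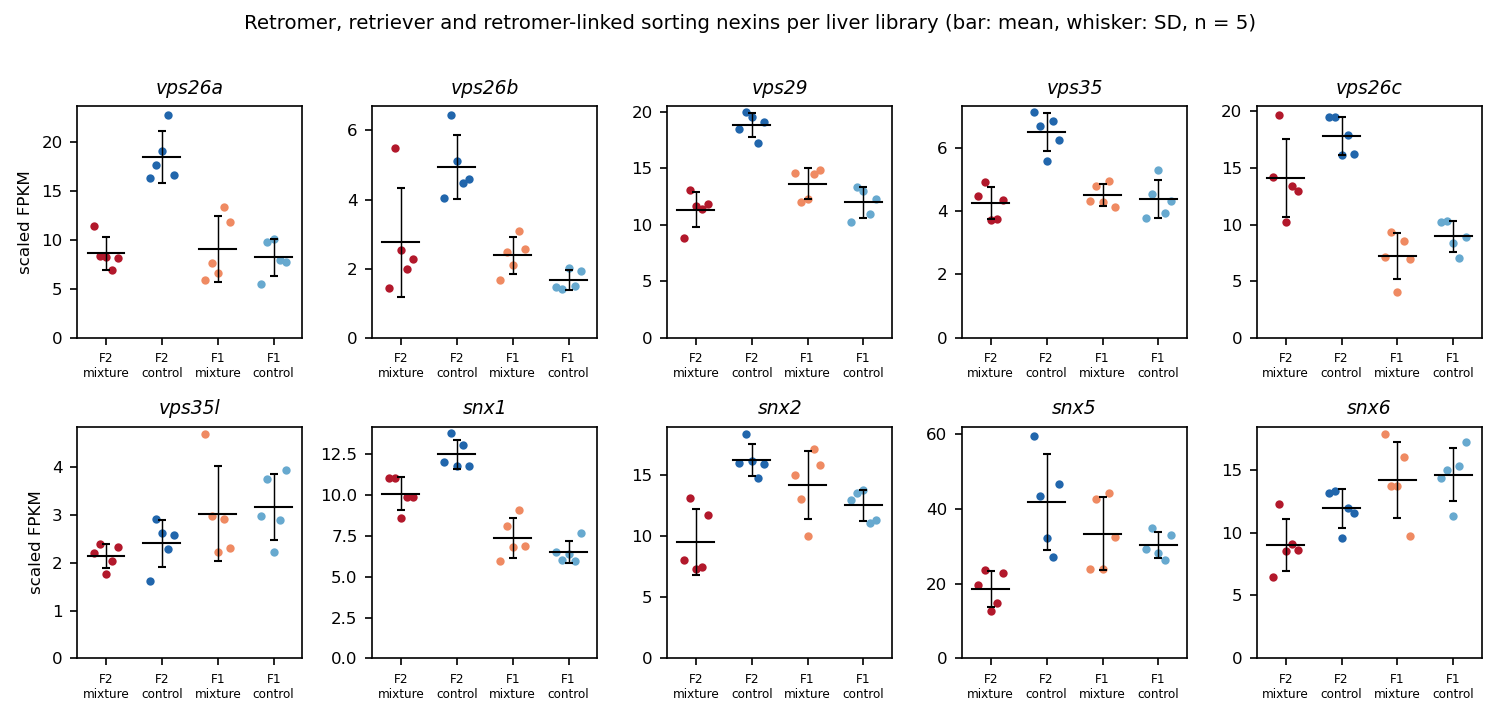
Scaled FPKM in each liver library (points), with mean (bar) and SD (whisker, n = 5 per group), of the retromer genes vps26a, vps26b, vps29 and vps35, the retriever genes vps26c and vps35l, and 4 sorting nexins that work with retromer. F2 control is the highest group for all 4 retromer genes, as for vps29 at 17.2 to 19.9, while vps35l does not have F2 control highest (1.63 to 2.92).

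The Arf GTPases recruit coats: arf1 at the Golgi and arf6 at the plasma membrane. arf1 was at 43.3, 26.6, 33.7, 20.4 and 28.1 scaled FPKM in F2 mixture libraries, against 50.1, 45.0, 54.3, 45.1 and 56.6 in F2 control libraries, without overlap. It fell by 0.74 ± 0.26 log2 units (adjusted p = 0.0427), but the call ended with library number as a block among F2 libraries (adjusted p = 0.0502) and without any of 12 single libraries (up to 0.124). arf6 fell by 0.47 ± 0.15 log2 units (adjusted p = 0.0283), a call that ended without any of 7 F2 libraries (up to 0.0728). arf3, arf4 and arf5 were not called. Of the 3 AP-2 genes in the set, which leaves out the alpha subunits, ap2b1, the beta subunit, fell by 0.52 ± 0.12 log2 units (adjusted p = 0.0043). It was at 4.30 to 5.85 in F2 mixture libraries and 6.58 to 8.39 in F2 control libraries. ap2m1 and ap2s1 differed by -0.32 ± 0.17 (adjusted p = 0.165) and -0.51 ± 0.21 (0.0807), not called. None of the 7 AP-1 genes and none of the 4 AP-4 genes was called.

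Among the SNAREs, vamp3, which fuses recycling endosomes with the surface, fell by 0.83 ± 0.17 log2 units (adjusted p = 0.0023), at 0.846 to 2.24 in F2 mixture libraries and 2.03 to 4.27 in F2 control libraries. stx16, of the trans-Golgi network, fell by 0.77 ± 0.27 log2 units (adjusted p = 0.0402), and its partner stx6 fell by 0.41 ± 0.12 log2 units (0.0158). stx2 of the cell surface fell by 0.51 ± 0.15 log2 units (0.0178). Of these, vamp3 and stx2 reached the level minimum only through the F2 control libraries, the group their falls are measured against. vamp7 of lysosomes fell by 0.38 ± 0.14 log2 units (adjusted p = 0.0485). Leaving out any of 8 F2 libraries ended the stx16 call (up to 0.126), F2 mixture library 4 the stx2 call (0.0615) and any of 17 libraries the vamp7 call (up to 0.115), while stx6 and vamp3 kept theirs. The abundant vamp8 differed by -0.49 ± 0.26 (adjusted p = 0.173) and was not called.

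Of 13 TRAPP genes, whose products tether vesicles at the Golgi and activate Rab1, 4 fell. With their log2 differences they were trappc11 (-0.72 ± 0.23, adjusted p = 0.0281), trappc2l (-0.61 ± 0.17, 0.0136), trappc6a (-0.54 ± 0.15, 0.0124) and trappc2 (-0.50 ± 0.18, 0.0429). trappc2l and trappc6a kept the call whichever library was left out, whereas trappc11 lost it without any of 5 F2 libraries (up to 0.0878) and trappc2 without any of 9 libraries (up to 0.119). Of 7 ESCRT and VPS4 genes vps25 of ESCRT-II fell by 0.48 ± 0.16 log2 units (adjusted p = 0.0359), and vps28 of ESCRT-I fell by 0.59 ± 0.22 log2 units (0.0497). vps25 lost the call without any of 7 F2 libraries (up to 0.106) and vps28 without any of 18 libraries (up to 0.129). No call was made among the 4 GARP and EARP tether genes, the 4 vps13 genes of lipid transfer, or vps45, vps72 and vps9d1, of which vps72 encodes a chromatin protein despite its name.

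Genes of the same routes that carry other names were read from 7 lists, in which 13% (Arf cycle) to 28.1% (endosome complexes) of genes were called, where 25.7% of all genes tested were. Of 38 genes of the Rab cycle outside the set, 5 rose and 5 fell, led by rabep2, a Rab5 effector (1.29 ± 0.30, adjusted p = 0.00417), and tbc1d10a, a Rab GTPase-activating protein (1.04 ± 0.23, 0.00346). Of 23 Arf cycle genes 2 rose and 1 fell, with arap1 at 1.08 ± 0.34 (adjusted p = 0.026) and arfgap2 at 0.73 ± 0.21 (0.0148), both activators of Arf hydrolysis. Of 24 other SNARE genes none rose and 6 fell, with snap23, the SNARE partner of VAMP8 and VAMP3, at -1.17 ± 0.18 (adjusted p = 0.000184) and napa, which helps take SNARE complexes apart, at -0.83 ± 0.15 (0.000841). snap23 stood at 3.48 to 7.16 scaled FPKM in F2 mixture libraries and 10.6 to 13.8 in F2 control libraries. Of 28 clathrin and endocytosis genes 1 rose and 4 fell, with sh3gl1, an endophilin, at -1.12 ± 0.17 (adjusted p = 0.000205) and cltb, a clathrin light chain, at -0.79 ± 0.12 (0.000224).

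Of 20 ESCRT genes outside the VPS names, 1 rose and 4 fell. The riser was tsg101, the ESCRT-I subunit that binds ubiquitin and pairs with VPS28, at 31.7 to 45.8 scaled FPKM in F2 mixture libraries and 14.1 to 18 in F2 control libraries (1.25 ± 0.15, adjusted p = 2.39e-05). chmp1a of ESCRT-III fell by 0.85 ± 0.21 log2 units (adjusted p = 0.0072). Of 24 Golgi tether genes 4 rose and 2 fell, with cog4 at -1.0 ± 0.27 (adjusted p = 0.0105) and golgb1 (giantin) at 0.74 ± 0.20 (0.0118). cog4, of the COG tether, ran from values listed at 0 to 1.71 in F2 mixture libraries and 0.853 to 2.77 in F2 control libraries. Of 32 genes of the VPS34, WASH and Commander complexes of endosomes 3 rose and 6 fell. The 2 largest were both of Commander, the complex that includes retriever: commd8 fell by 1.45 ± 0.22 log2 units (adjusted p = 0.000149) and ccdc93 rose by 1.35 ± 0.18 log2 units (6.53e-05).

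The same comparison in the generation before gave no call. Of the 171 members 0 were called between F1 mixture and F1 control livers, where 0% of all genes tested were called. With limma 24 members and 1306 of all 10228 genes had an unadjusted p under 0.05, and the median log2 difference was 0.05 over members and -0.02 over all genes tested. When libraries were weighted by their spread, 19 members were called, 10 higher and 9 lower. The share of all genes called in that weighted fit is not given here. The authors' deposited table marked 1 member. Every F1 mixture library was above every F1 control library for 3 members, rab11b.1, trappc3 and vps39, named after their values were seen, and below for none. The 3 are 1.75% of members, where 0.684% of all genes tested were above and 0.909% below. With their log2 differences, those of smallest p were snx33 (-0.46 ± 0.13, adjusted p = 0.2), trappc2 (0.56 ± 0.18, 0.245), arf6 (0.46 ± 0.15, 0.281), rab38 (-0.72 ± 0.24, 0.281), rab40b (-0.65 ± 0.22, 0.298) and trappc5 (0.50 ± 0.19, 0.345). snx33 was at 4.14, 3.91, 3.0, 3.14 and 2.94 scaled FPKM in F1 mixture libraries, against 5.08, 6.21, 3.93, 5.33 and 4.86 in F1 control libraries. On the log2 scale rgp1 differed by -0.10 ± 0.52, exoc7 by -0.73 ± 0.30, vps26a by 0.09 ± 0.21 and rab22a by 0.51 ± 0.24, none called.

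Whether the mixture difference itself changed between generations was tested directly, as the F2 difference minus the F1 difference. It was higher in F2 for 6 members and lower for 32, 38 in all or 22.2%, where 20.1% of all genes tested were called (9.52% higher and 10.5% lower). The median was -0.32 over members and -0.03 over all genes tested, on the log2 scale. rgp1 (2.30 ± 0.73, adjusted p = 0.0327), exoc7 (2.06 ± 0.42, 0.00348), rab44 (1.17 ± 0.36, 0.0297), rab41 (1.11 ± 0.30, 0.0161), ap3d1 (1.1 ± 0.29, 0.013) and snx11 (0.85 ± 0.29, 0.0443) were the 6. The exoc7, rab41 and ap3d1 calls did not rest on any single library, while rgp1 lost its call without any of 6 libraries (up to 0.0691), rab44 without any of 6 (up to 0.0602) and snx11 without any of 14 (up to 0.0889). The largest on the negative side were rab22a (-2.53 ± 0.34, adjusted p = 0.000213), rab20 (-2.36 ± 0.75, 0.0327), rab25 (-1.74 ± 0.33, 0.00222), snx7 (-1.41 ± 0.24, 0.00119), rab29 (-1.36 ± 0.36, 0.0141) and arf1 (-1.23 ± 0.37, 0.0252). snx5 (-1.20 ± 0.33), snx3 (-1.14 ± 0.23), trappc2 (-1.06 ± 0.25) and rab4b (-0.97 ± 0.25) followed. Of these rab20 lost the call without any of 11 libraries (up to 0.069) and arf1 without F1 mixture library 9 (0.0507) or 13 (0.0511) or F2 mixture library 4 (0.0533). All 4 retromer genes were among the 32, from -0.56 ± 0.16 for vps35 to -1.12 ± 0.29 for vps26a. vps8 differed between generations by 1.19 ± 0.63 (adjusted p = 0.185), which did not pass. Without F2 mixture library 2, 59 members were called, and without F1 mixture library 9, 25. The count was 19 without scaling, 80 with weighted libraries, 6 with library number as a block over all libraries, and 15 or 19 with the erythrocyte or macrophage markers as a covariate, while rab22a, rab25, snx3 and snx7 were called under every setting. The block over all libraries joins F1 and F2 libraries of the same number, and F1 mixture then rests on libraries 1 and 4. Its lower count cannot be read as an effect of pairing. The shares of all genes called under these other settings are not given here. Without the 5 members that entered only through the F2 control libraries, snx3 among them, 6 were higher and 30 lower.

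Both control groups came from the same earlier deposit, and F2 control livers differed widely from F1 control livers. Since no label dates the runs, generation and sequencing run cannot be told apart in this comparison. Of the 171 members 70 were higher in F2 control livers and 32 lower, 102 in all or 59.6%, where 55.9% of all genes tested were called (27.4% higher and 28.5% lower). Without the 5 members that entered only through the F2 control libraries, 66 were higher and 32 lower. The median log2 difference was 0.29 over members and -0.03 over all genes tested, and with the erythrocyte markers as a covariate it was 0.11 over members and -0.02 over all genes tested. The groups did not overlap for 64 members that were higher and 27 that were lower. These are 37.4% and 15.8% of members, where the shares of all genes tested were 20.3% and 21.5%. Without scaling between libraries, which moved the median of all genes by -0.19, the split was 51 higher and 43 lower. These values share the F2 control libraries with the F2 comparison above, so a member high or low in F2 control livers enters both. Of the erythrocyte markers 8 of 14 were also higher in F2 control livers and none lower, and with them as a covariate 51 members were higher and 23 lower. The shares of all genes called with that covariate or without scaling are not given here. Of the hepatocyte markers 6 of 15 were higher and 1 lower, and of the endothelium markers 2 of 7 were higher and 3 lower, and their part in the result was not tested.

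The members with the largest log2 differences of F2 control over F1 control livers were rab22a (2.31 ± 0.24, adjusted p = 9.6e-07), rab20 (1.85 ± 0.53, 0.00594), snx12 (1.68 ± 0.26, 3.33e-05) and rab14 (1.62 ± 0.27, 6.06e-05). rab14, a GTPase of Golgi-to-endosome traffic, was at 17.1, 19.6, 18.4, 17.5 and 19.5 scaled FPKM in F2 control libraries, against 5.20, 3.64, 10.4, 4.31 and 4.74 in F1 control libraries, and every F2 control library was above every F1 control library. rab43 (1.44 ± 0.38), rab25 (1.42 ± 0.23), ap1s1 of AP-1 (1.41 ± 0.31), vamp8 (1.36 ± 0.26), vamp3 (1.35 ± 0.17), snx3 (1.35 ± 0.16), vps28 (1.33 ± 0.22) and rab2a of ER-to-Golgi traffic (1.28 ± 0.17) followed, all with adjusted p of 0.00346 or less. None of the calls named so far ended when 1 library was left out, but with library number as a block among F2 libraries the rab20 call did (adjusted p = 0.154). By family, 24 of the 44 Rab GTPases, all 5 Arf GTPases, all 3 AP-2 genes in the set and 5 of the 6 genes of the retromer list were higher, while 6 Rab GTPases were lower. All 4 VAMP genes tested were higher too, of which vamp3 and vamp4 had reached the level minimum only through the F2 control libraries. The same holds for snx3 above. The block among F2 libraries ended 18 of the 102 calls, and in these families they were rab1a (adjusted p = 0.0859), rab12 (0.0958), rab20, rab23 (0.0566), rab38 (0.114), vamp4 (0.137), vamp7 (0.137) and vps29 (0.0578). In that fit the F2 level is the one fitted for library number 1, not the F2 mean. It moved the median of all genes by -0.039 in this comparison, so these losses do not measure pairing.

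On the same log2 scale the most negative members were exoc7 (-2.35 ± 0.30, adjusted p = 5.93e-06) and rgp1 (-2.12 ± 0.52, 0.00181), whose values rest on the same F2 control libraries as their rise in F2 mixture livers. rab44, a large Rab with an EF-hand domain, was at 2.08, 3.02, 2.02, 2.74 and 2.48 scaled FPKM in F2 control libraries, against 11.4, 13.4, 5.39, 16.3 and 7.32 in F1 control libraries, without overlap (-1.68 ± 0.26, adjusted p = 2.95e-05). Also lower were rab5c (-1.62 ± 0.23), rab41 (-1.58 ± 0.21), snx25 (-1.48 ± 0.29), stx1a (-1.31 ± 0.27), ap4b1 of AP-4 (-1.29 ± 0.38), ap1m2 of the epithelial AP-1 (-1.26 ± 0.28), ap3d1 (-1.21 ± 0.20), trappc10 (-1.07 ± 0.21) and exoc5 (-0.94 ± 0.19), with adjusted p of 0.00773 or less. Among the tethers, no HOPS or CORVET gene was higher and vps11 was lower (-0.88 ± 0.19), and 2 of the 4 GARP and EARP genes, vps51 (-0.55 ± 0.15) and vps52 (-0.61 ± 0.14), were lower. With the erythrocyte markers as a covariate the calls of rgp1 (adjusted p = 0.101) and ap4b1 (0.205) ended, as did those of rab20 (0.326) and rab43 (0.16) among the higher members above.

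F2 mixture livers differed from F1 mixture livers in fewer members. Of the 171, 10 were higher and 17 lower, 27 in all or 15.8%, where 14.2% of all genes tested were called (6.06% higher and 8.11% lower). The 17 include rab11fip5, which reached the level minimum only through the F1 mixture libraries, the group its fall is measured against. The groups did not overlap for 3 members that were higher and 13 that were lower. These are 1.75% and 7.60% of members, where the shares of all genes tested were 3.18% and 5.44%. The count fell to 10 without F1 mixture library 1, to 11 without F1 mixture library 8 and to 15 without F2 mixture library 1, and it was 12 with weighted libraries, 6 in a fit of these 10 libraries alone and 2 with library number as a block over all libraries. That block joins F1 and F2 libraries of the same number and leaves F1 mixture resting on libraries 1 and 4, so its count does not measure pairing. The split depended on the scaling, with 3 higher and 21 lower without scaling, which moved the median of all genes by -0.17, and 15 higher and 14 lower with quantile normalization. No endothelium marker was higher and 3 of 7 were lower, with sums of 36.7 to 70.0 scaled FPKM in F2 mixture libraries and 81.5 to 124 in F1 mixture libraries, and their part in the result was not tested. No erythrocyte or hepatocyte marker was called, and 1 of 8 macrophage markers was lower. With the macrophage markers as a covariate 37 members were called. The shares of all genes called under these other settings are not given here.

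snx7 was the 1 member called here under every setting. It was at 1.20 to 2.88 scaled FPKM in F2 mixture libraries and 3.19 to 5.44 in F1 mixture libraries (log2 difference -1.05 ± 0.17, adjusted p = 0.00157). snx10, a nexin of endosome and osteoclast biology, was lower (-1.04 ± 0.22, adjusted p = 0.00587), at 1.44, 1.08, 2.70, 1.36 and 2.0 in F2 mixture libraries, against 4.54, 3.19, 6.24, 6.23 and 3.04 in F1 mixture libraries. rab5c (-0.92 ± 0.23, adjusted p = 0.0132), vps39 of HOPS (-0.66 ± 0.15, 0.00859), snx5 (-0.79 ± 0.24, 0.0309), snx6 (-0.60 ± 0.18, 0.0281) and ap3s2 (-0.84 ± 0.24, 0.025) were lower too. rab3d, a GTPase of regulated secretory granules, was higher (1.41 ± 0.39, adjusted p = 0.0232), at 31.9, 34.9, 13.2, 28.3 and 6.54 in F2 mixture libraries, against 7.61, 7.27, 5.81, 5.14 and 8.51 in F1 mixture libraries, with 1 F2 mixture library inside the F1 mixture range. vps26c of retriever (0.89 ± 0.19, adjusted p = 0.00583), rab21 of endosomal integrin traffic (0.77 ± 0.15, 0.00422), snx12 (0.98 ± 0.26, 0.0183), rab14 (0.91 ± 0.27, 0.03), rab24 (0.83 ± 0.24, 0.0251), rab35 (0.68 ± 0.20, 0.0264) and rab2a (0.61 ± 0.17, 0.0218) were also higher. The calls of snx7, snx10, rab5c, vps39, vps26c and rab21 held whichever library was left out, and the others named here ended without 2 to 4 libraries each (adjusted p up to 0.0904). With library number as a block among F2 libraries the calls of vps39, rab3d, vps26c, rab21 and snx7 were kept, while those of snx10 (adjusted p = 0.0608), rab5c (0.0941), snx5 (0.288), snx6 (0.0631), ap3s2 (0.335), snx12 (0.0775), rab14 (0.218), rab24 (0.072), rab35 (0.0602) and rab2a (0.0782) were lost. In that fit the F2 level is the one fitted for library number 1, not the F2 mean. It moved the median of all genes by -0.061 here, so these losses do not measure pairing.

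The authors' deposited tables hold their own tests of the mixture comparisons. In F2 the authors' deposited table marked 25 of 170 members (14.7%), 9 higher and 16 lower. It marked a larger share of all its genes, 20.3% (10.4% higher and 9.88% lower). Of the 25, 20 were also called above and all 25 had the same direction. The rest of the 46 members called above were not marked there, among them vps26b, vps29, vps35, arf1, arf6, snx2, rab18, rab2b and rab5b. With 16 of 170 members marked lower, the share of members lower was not above the 9.88% of its genes, unlike in the limma fit. The share marked higher was below that of its genes. The authors' deposited table gave rgp1 a log2 fold change of 2.60 (q = 0.000955) and rab22a one of -2.66 (q = 0.000955). The 5 marked there alone were rab3d, rab43, rab44, rab6b and stx8. In F1 the authors' deposited table marked 1 member (0.588%), where it marked 2.43% of its genes: rab30, with a log2 fold change of 1.16 (q = 0.0139). In the fit above rab30, a Golgi GTPase, was at 14.6, 10.6, 15.2, 7.22 and 16.2 scaled FPKM in F1 mixture libraries, against 7.74, 3.30, 9.26, 4.51 and 7.23 in F1 control libraries, a log2 difference of 0.91 ± 0.43 (adjusted p = 0.385).

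The 169 members whose coordinates match UCB_Xtro_10.0 lay on all 10 chromosomes, with the most on chromosome 1 (28) and the fewest on chromosome 7 (8). Some members cannot be read alone. rab11b.1 and rab11b.2 share a name and lie close together on chromosome 1, and their sequences were not compared. If they are alike, fragments could be split between them. In the annotation 15 members overlap another gene: rab20 (naxd), vps8 (rpe), vps35 (orc6), rab14 (cntrl), ap4b1 (dclre1b), snx14 (nt5e), snx21 (acot8), snx25 (lrp2bp), stx2 (rimbp2), vps52 (ring1), ap4m1 (mcm7 and stag3) and, with loci that have no gene name, ap1g1, exoc1, exoc4 and stx18. Overlaps of ap1s2 and stx1a, whose coordinates did not match, were not checked.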

How the data were processed

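Liver RNA of 20 females (15 mg of tissue each, stranded mRNA libraries read as 75-base reads, per the labels' protocols) was measured by RNA-seq. The authors deposited a gene FPKM table with its lower and upper confidence limits for each library, and 2 tables of mixture against control with a log2 fold change, a p-value, a q-value and a test statistic (a score), per the file headers. Trimmomatic 0.32.1, HISAT2, Cufflinks 0.0.7 and Cuffdiff 0.0.7 are named per the submitters' processing notes, without a genome build, which is not named in any source read here. Gene starts and ends were those of UCB_Xtro_10.0 for 20163 of 20372 named genes (99.0%), and for 169 of 171 members. Files recorded for F1 mixture libraries 9 and 13 were used for the library they are recorded under, although their names carry the other's number.

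FPKM was divided by a median-of-ratios factor per library (6971 genes at 1 FPKM or more in every library) and genes with a mean of 1 FPKM or more were kept (10228). limma 3.58.1 in R 4.3.3 was fitted to log2(scaled FPKM + 1) over all 20 libraries with 4 group means, with an intensity trend and Benjamini-Hochberg adjustment over all genes tested. The fit was tested on simulated data first. Read counts were not used, so the implied fragments come from the deposited FPKM limits, and the half-width of those limits was 7.92% to 11.0% for genes of 5 to 20 FPKM, a counting error only. Python 3.11.15 with pandas 2.3.3 and numpy 2.4.6 made the tables.

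Members, gene lists and tests were chosen with earlier results of these data known. Named genes were the called members of a comparison or, above 24, the 12 furthest in each direction, the 3 of smallest p each way in F1, rgp1, ric1 and the highest of each family, plus the 2 largest calls of each other list. The other calls of the F2 comparison were named after their values were seen. Library numbers are shared between the groups of a generation. In F2 the deviations of same-numbered libraries correlated at 0.385, 0.369, 0.154, 0.104 and 0.169. These were taken as pairs in the block among F2 libraries only, and the main fit had no pairing. Libraries of different number reached 0.167, for F2 mixture library 3 with F2 control library 5, above the 0.154 and 0.104 of numbers 3 and 4. In F1 the groups share only numbers 1 and 4 (-0.0167 and -0.187). The labels call the libraries biological replicates and do not tie them to animals.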

Additional observations from a re-analysis of the deposited data

Results flagged for a closer look

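Single libraries stood apart from the other 4 of their group, by the gap test of Dixon at its 95% critical value, for 17 of 276 groups of 5 checked, and chance flags about 1 in 20 groups. In F2 mixture library 2 these were ap1m2 (0.236 scaled FPKM), rab44 (2.22), stx1a (1.60), rab35 (18.4), trappc1 (28.5) and vps28 (15.6). In F2 control library 1 they were rab43 (104), vps13d (1.18) and vps25 (34.9). ap3d1 stood apart in F2 control library 2 (9.34), and rab36 in F2 control library 4 (2.87). Among F1 mixture libraries the values were ap1m2 in library 8 (6.16), rab2a in library 13 (13.8), snx25 in library 1 (10.2) and trappc2 in library 4 (1.91). Among F1 control libraries they were stx8 (14.9) and vps39 (1.99), both in library 3.

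The mixture difference was tested between F2 and F1 and passed for 26 of the named members. On the log2 scale, F2 minus F1, it was higher for rgp1 (2.30), exoc7 (2.06), rab44 (1.17), rab41 (1.11), ap3d1 (1.1) and snx11 (0.85). Of the Rab GTPases it was lower for rab22a (-2.53), rab20 (-2.36), rab25 (-1.74), rab29 (-1.36), rab4b (-0.97), rab36 (-0.74) and rab2a (-0.67). Of the retromer genes and sorting nexins it was lower for snx7 (-1.41), snx5 (-1.20), snx3 (-1.14), vps26a (-1.12), vps26b (-1.07) and vps29 (-0.87). It was also lower for arf1 (-1.23), trappc2 (-1.06), arf6 (-0.94), vamp3 (-0.92), vps28 (-0.90), trappc5 (-0.88) and vps25 (-0.71). Several of these calls rested on single libraries, with rab2a lost without any of 15 libraries (adjusted p by limma up to 0.0984), vps28 without any of 15 (0.0844), vps25 without any of 8 (0.0739), trappc5 without any of 7 (0.064) and rab36 without F1 mixture library 13 (0.0524). With library number as a block among F2 libraries the rab2a call was also lost (0.0534). Both snx3 and vamp3 had entered the set only through the F2 control libraries.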

How the results depend on the processing

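The named members gave 4564 comparisons with other settings over 135 results. These results were calls of the main fit and the F1 differences of smallest p, which were not called. Of the comparisons 4051 kept direction and status, called or not, 507 kept direction and lost the call, 6 kept direction and gained it, and 0 turned round. A difference of 2 groups cannot move in a fit of those groups alone or without a library of another group. Its direction was fixed there, so these counts do not measure how stable the directions are. Counts of called members were less settled, and the shares of all genes called under the other settings are not given here. With 1 library left out, the count ran from 32 to 68 in F2 mixture against F2 control, from 25 to 59 for the change of the mixture difference between generations, from 95 to 113 in F2 control against F1 control and from 10 to 29 in F2 mixture against F1 mixture, and it was 0 in every case in F1 mixture against F1 control. The change between generations, 38 as reported, came to 19 without scaling, 80 with library weights, 58 without both F2 mixture library 2 and F2 control library 1, and 15 and 19 with erythrocyte and macrophage markers as a covariate. F2 mixture against F1 mixture, 27 as reported, came to 12 with library weights and 6 with only these 2 groups fitted. F1 mixture against F1 control came to 19 with library weights and 1 by the authors' Cuffdiff marks, which gave 25 in F2. The cause was not tested.

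With library number as a replicate block over all libraries the count was 40 in F2 mixture against F2 control, 6 for the change between generations, 90 in F2 control against F1 control, 2 in F2 mixture against F1 mixture and 0 in F1. This block joins F1 and F2 libraries of the same number. An F1 library whose number occurs once then adds nothing to its group mean, and F1 mixture rests on libraries 1 and 4. With the length trend also removed the counts were 39, 6, 94, 1 and 0 in the same comparisons. With the replicate block among F2 libraries only, whose same numbers were taken as pairs, it was 55 in F2 mixture against F2 control, of which 45 are shared with the 46, and 46, 97, 19 and 0 in the others, listed as before. The 97 and 19 compare F1 livers with the F2 level fitted for library number 1, not with the F2 mean. In F2 the length trend removed gave 12 higher and 31 lower. Removal of the length trend by transcript length was not run, since no such length is given here, and the length implied by the deposited limits stood in. That version, both marker covariates, the block among F2 libraries and the paired leave-out were chosen after seeing the data. Depth limits the members near 1 FPKM most, and for rab20, with values listed at 0, the size of the change is not fixed by these data.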
